A study of Homo sapiens with 6 samples.

Results

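Amino acid transporters are membrane proteins that carry amino acids across the plasma membrane. The 10 genes described here are those of the 24462 different symbols of the count files that are on a list of such carriers. These genes were listed by name, with earlier results of these data known. They are SLC1A5, SLC38A1 and SLC38A2, carriers of glutamine and other neutral amino acids, SLC7A1 and SLC7A2, carriers of arginine and other cationic amino acids, and SLC3A2 with SLC7A5, SLC7A6, SLC7A7 and SLC7A8. SLC3A2 encodes the heavy chain of the CD98 complexes, and the latter 4 genes encode light chains that bind it.

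The libraries come from 1CT, a line of human colonic epithelial cells that has been immortalized and that the labels call wild type, and from 1CT-A, its APC depleted version, which the labels call an APC knockdown. APC is a part of the complex that marks β-catenin for breakdown. There are 3 untreated libraries of each line, and both lines grow in the same medium with epidermal growth factor, insulin, hydrocortisone, transferrin, selenite and 2% FBS. The labels do not say whether the 3 libraries of a line are separate cultures, so the p-values measure the spread between these libraries, and each line stands for itself alone as a model of APC loss.

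A dividing cell takes up glutamine as a source of nitrogen and carbon, and leucine as a building block and as a signal to the kinase complex mTORC1. SLC1A5 (ASCT2) exchanges glutamine for other neutral amino acids, while SLC38A1 and SLC38A2 (SNAT1 and SNAT2) use the sodium gradient to accumulate it. A CD98 complex such as SLC3A2 with SLC7A5 (LAT1) then exchanges intracellular glutamine for extracellular leucine. SLC7A7 and SLC7A8 are best known from the basolateral side of kidney and small intestine epithelium, where they let amino acids out towards the blood.

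The 3 glutamine carriers among the members move in opposite directions. SLC1A5 and SLC38A1 are higher in 1CT-A, and SLC38A2 is lower. Among the CD98 genes, SLC7A5 is lower by a smaller step and SLC3A2, SLC7A6 and SLC7A8 are not called, and the arginine carriers SLC7A1 and SLC7A2 are not called either. SLC7A7 has too few reads for the main test. Of the 9 members that pass the filter on low counts, 2 are called higher and 2 lower, where called means that edgeR gives a quasi-likelihood p under 0.05 after adjustment over all tested genes. Among all 12514 tested genes 51.0% are called, 25.0% higher and 26.0% lower, so a call is common in this comparison, and the 44.4% of tested members that are called is no larger share.

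The libraries are QuantSeq libraries, which give reads from the 3′ end of each transcript, and a level is given as CPM, the counts of a gene scaled to the total of its library. A transcript gives such a read whatever its length, so CPM is not divided by length. The files hold 7788679 to 8452258 counts per 1CT library and 11158108 to 12602988 per 1CT-A library, and 3 counts, taken as the smallest level that can be seen, are 0.355 to 0.385 CPM in the 1CT libraries and 0.238 to 0.269 in the 1CT-A libraries. This limit covers counting error only. Since 3 libraries stand against 3, the smallest p of an exact two-sided permutation test of a single gene is 0.1, and calls are taken from edgeR alone. In such bulk RNA, fewer cells that use a gene and less of its RNA per cell cannot be told apart. The APC gene has a mean of 46.6 ± 2.75 CPM in 1CT against 31.9 ± 2.21 CPM in 1CT-A (SD, n = 3 each), with a log2 fold change of -0.58 (SE 0.09, adjusted p = 1.76e-04 in edgeR). The label of the cells was compared with marker genes. EPCAM, CDX1, VIL1, FABP1 and MUC2, which mark colon epithelium, have 0 counts in every library, and CDH1, the epithelial cadherin, has at most 4. The 7 epithelial markers sum to 41.1 to 45.2 CPM in the 1CT libraries and 23.6 to 30.8 in the 1CT-A libraries, and the 3 of them that are tested (KRT18, KRT19, CLDN7) are all lower in 1CT-A. The 7 fibroblast and mesenchymal markers, with VIM and COL1A1 at the head, sum to 4361 to 5465 CPM in the 1CT libraries and 4197 to 4504 in the 1CT-A libraries, with 2 called higher, 3 lower and 2 not called. PTPRC, CD3E and CDH5, which define leukocytes, T cells and endothelium, are at 0, and CD68, the only tested gene of the 7 immune and endothelial markers, is lower in 1CT-A. None of the 7 colon markers is tested, with at most 2 counts per library. These levels do not bear out the epithelial label, though KRT18 and CLDN7 are counted in every library. The part of these marker differences in the results that follow was not tested.

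A stretch before a RefSeq start of transcription is shown here for each of the 4 called members. ATF4 and MYC, transcription factors known to act on carrier genes and described further on, recognize short motifs in DNA. The RefSeq promoter table (build GRCh38.p14) holds 19 windows for 9 members, and SLC7A2 has none there. Each window was searched on both strands for TGATGCA, the core of the composite element bound by ATF4 with a C/EBP partner, and for CACGTG, the E-box bound by MYC with MAX, and no member window holds both. The letters below end at the base before the annotated start of transcription, read 5′ to 3′ on the gene's own strand, and capitals mark a match.
SLC1A5, chr19:46788595-46788844, minus strand: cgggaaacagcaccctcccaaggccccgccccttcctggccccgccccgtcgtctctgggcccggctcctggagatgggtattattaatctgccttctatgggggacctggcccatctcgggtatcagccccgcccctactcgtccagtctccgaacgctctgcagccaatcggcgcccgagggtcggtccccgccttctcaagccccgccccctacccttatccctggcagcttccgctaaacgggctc
SLC38A1, chr12:46267988-46268237, minus strand: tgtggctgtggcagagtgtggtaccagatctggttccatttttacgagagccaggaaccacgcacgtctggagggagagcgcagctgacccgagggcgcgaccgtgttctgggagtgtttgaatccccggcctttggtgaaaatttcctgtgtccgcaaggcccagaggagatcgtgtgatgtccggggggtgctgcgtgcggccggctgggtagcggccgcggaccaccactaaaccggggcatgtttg
SLC38A2, chr12:46372774-46373023, minus strand: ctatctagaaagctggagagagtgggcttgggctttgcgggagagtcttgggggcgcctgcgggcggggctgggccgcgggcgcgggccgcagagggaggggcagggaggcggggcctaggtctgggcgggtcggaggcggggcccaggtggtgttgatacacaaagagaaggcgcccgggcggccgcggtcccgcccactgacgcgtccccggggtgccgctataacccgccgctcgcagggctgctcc
SLC7A5, chr16:87869508-87869757, minus strand: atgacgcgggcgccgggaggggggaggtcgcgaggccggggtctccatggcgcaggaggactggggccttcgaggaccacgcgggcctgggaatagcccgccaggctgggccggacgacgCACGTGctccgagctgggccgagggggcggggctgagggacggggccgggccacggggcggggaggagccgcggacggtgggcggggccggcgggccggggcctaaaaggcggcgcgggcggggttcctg

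Of these 4 stretches only that of SLC7A5 holds a match, an E-box that begins 130 bases before the start. SLC38A1 has 2 windows in the table and SLC1A5 has 3, and the outermost one is shown for each. The stretch of SLC38A1 lies inside the gene as bounded by GENCODE 44, which reaches to 46270017. The only TGATGCA among the 19 windows lies in the innermost window of SLC1A5, 97 bases before an internal start. The 60 bases that end with it are given for comparison.
SLC1A5 internal, chr19:46784905-46784964, minus strand: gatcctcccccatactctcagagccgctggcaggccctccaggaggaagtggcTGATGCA

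Over all 35116 windows of the table, 2.63% hold TGATGCA and 7.26% hold CACGTG. An E-box is found in 4 of the 19 member windows, 1 each of SLC1A5, SLC7A5, SLC7A7 and SLC7A8. A match is a description of the letters, and none of these windows was measured here.

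SLC1A5, the sodium dependent exchanger that brings glutamine into the cell, has the largest log2 fold change of the tested members. Its level is 266, 271 and 299 CPM in the 3 libraries of 1CT and 540.1, 500.3 and 493 CPM in those of 1CT-A. The groups do not overlap, as is so for 59.7% of all tested genes and for 4 of the 9 tested members, and the lowest 1CT-A library stands well above the highest 1CT library. The mean rises from 279 ± 18.0 to 511 ± 25.6 CPM (SD, n = 3 each), which the fit gives as 0.84 on the log2 scale (SE 0.07, adjusted p = 1.23e-06 in edgeR) with a 95% interval from 0.68 to 1.00. SLC1A5 lies on the minus strand of chromosome 19 from 46774883 to 46788594 in GRCh38 (GENCODE 44).

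SLC38A1, the SNAT1 carrier, is measured at 118, 129 and 118 CPM in 1CT and at 198, 193 and 183 CPM in 1CT-A. Every 1CT-A library is higher than every 1CT library. The mean goes from 122 ± 6.24 to 191 ± 7.92 CPM (SD, n = 3 each), and the log2 fold change is 0.61 (SE 0.07, adjusted p = 1.43e-05 in edgeR). Its 95% interval, from 0.46 to 0.77, shares values with that of SLC1A5.

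SLC38A2, the SNAT2 carrier, is the neighbour of SLC38A1 on the same strand of chromosome 12, where it runs from 46358188 to 46372773 and SLC38A1 from 46183063 to 46270017. Starved cells are known to raise SNAT2. It reaches 384, 402 and 376 CPM in 1CT and 281, 293 and 282 CPM in 1CT-A. All 3 libraries of 1CT-A lie below all 3 of 1CT, which is the reverse of its neighbour. The log2 fold change of SLC38A2 is -0.48 (SE 0.06, adjusted p = 3.24e-05 in edgeR), from means of 388 ± 13.3 and 285 ± 6.48 CPM (SD, n = 3 each), and its 95% interval runs from -0.62 to -0.35, wholly below that of SLC38A1.

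**Figure D1:**
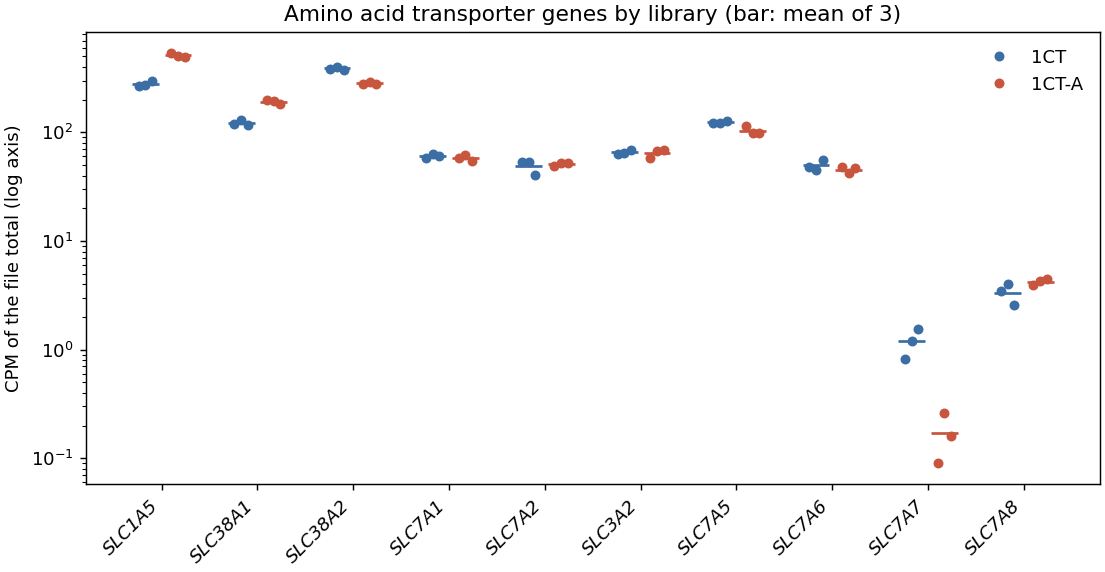
Level of each of the 10 amino acid transporter genes in each library, as CPM of the file total on a log axis, with blue points for the 3 libraries of 1CT, red points for the 3 of 1CT-A and a bar for the mean. SLC1A5 and SLC38A1 sit higher in 1CT-A, SLC38A2 and SLC7A5 sit lower, and SLC7A7 and SLC7A8 stay under 5 CPM in every library.

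Taken as a group, the 3 glutamine carriers among the members hold 768 to 802 CPM in the 1CT libraries and 957 to 1020 in the 1CT-A libraries. Who holds it differs. In 1CT, SLC38A2 accounts for 47.4% to 50.1% of their counts and SLC1A5 for 34.6%, 33.8% and 37.7%. In 1CT-A the order turns, with SLC1A5 at 53.0%, 50.8% and 51.5% and SLC38A2 at 27.6%, 29.7% and 29.4%. SLC38A2 is therefore the highest of the 10 members in each 1CT library, and SLC1A5 in each 1CT-A library. The share of SLC38A1 goes from 14.9% to 16.1% in 1CT to 19.1% to 19.6% in 1CT-A. Genes outside the members are not in this set. Of these, SLC38A5 of the same family falls from 41.9 ± 3.06 to 30.9 ± 3.74 CPM (SD, n = 3 each, log2 fold change -0.48, adjusted p = 0.00242 in edgeR). Over all 10 members the summed level is 1141 ± 19.9 CPM in 1CT and 1315 ± 33.6 CPM in 1CT-A (SD, n = 3 each), a ratio of 1.15 on the scale of file totals and of 1.12 after TMM normalization. This sum is given as a description, without a test.

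The heavy chain of CD98, SLC3A2, brings its light chains to the plasma membrane. Its level is 63.8, 64.1 and 69.2 CPM in 1CT and 58.6, 67.1 and 69.5 CPM in 1CT-A, so the groups overlap fully. The log2 fold change is -0.05 (SE 0.09, adjusted p = 0.647 in edgeR), and its 95% interval leaves room for a change between -0.24 and 0.14. SLC3A2 runs from 62856004 to 62888880 on the plus strand of chromosome 11, next to SNHG1, a host gene of small nucleolar RNAs, which is higher in 1CT-A (88.0 ± 10.4 against 139 ± 10.3 CPM, log2 fold change 0.62, adjusted p = 1.23e-04 in edgeR). Among the 22 other tested genes listed as plasma membrane carriers, the profile of SLC3A2 across the 6 libraries is most like that of SLC43A1 (Pearson r = 0.685 on log2(CPM + 1)). SLC43A1 is a leucine carrier that works without CD98. SLC7A6 (r = 0.182) and SLC1A1 (r = 0.118) follow, both weak, and these correlations over 6 libraries of 2 lines are descriptions only.

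SLC7A5, the LAT1 light chain, imports leucine and other large neutral amino acids. It is counted at 123, 122 and 126 CPM in 1CT and at 113, 98.5 and 98.9 CPM in 1CT-A. The groups do not overlap, but the gap between them is small. The fall is 0.30 on the log2 scale (log2 fold change -0.30, SE 0.08, adjusted p = 0.00802 in edgeR, 95% interval -0.47 to -0.12). Without 1CT-A replicate 3 the log2 fold change is -0.26 and no longer called (edgeR adjusted p = 0.0542). Without 1CT-A replicate 2 it is -0.25 and only just called (edgeR adjusted p = 0.04997). Reads of SLC7A5 could be divided with its partial copies, of which SLC7A5P1 has at most 1 count per library and SLC7A5P2 at most 22, in 1CT replicate 3. SLC7A5 lies on the minus strand of chromosome 16 from 87830023 to 87869507.

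SLC7A6, the y+LAT2 light chain, exchanges arginine for glutamine and sodium. Its libraries are at 47.8, 45.04 and 56.1 CPM in 1CT and at 47.7, 42.0 and 46.7 CPM in 1CT-A, with overlap. The log2 fold change is -0.16 (SE 0.10, adjusted p = 0.199 in edgeR, 95% interval -0.39 to 0.06). The 3′ end of SLC7A6 is covered by SLC7A6OS on the opposite strand, which has 237 to 405 counts per library against 373 to 589 for SLC7A6, and whether the counting used strand is not given in the sources used here, so reads of this pair may not be told apart. The log2 fold change of SLC7A6OS is -0.07 (adjusted p = 0.627 in edgeR).

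SLC7A8, the LAT2 light chain, is far lower, at 3.43, 3.98 and 2.57 CPM in 1CT and 3.94, 4.30 and 4.44 CPM in 1CT-A. The lowest 1CT-A library is just under the highest 1CT library. With 20 to 56 counts per library its log2 fold change of 0.30 has an SE of 0.23 (adjusted p = 0.285 in edgeR), and the 95% interval reaches from -0.19 to 0.79. At this depth neither a small fall nor a rise can be told from no change.

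SLC7A7, the y+LAT1 light chain, is the member with the fewest reads, and did not pass the filter. The 1CT libraries hold 7, 10 and 12 of them and the 1CT-A libraries, though deeper, 1, 3 and 2. Summed over the libraries, the CPM of 1CT-A is 0.144 of that of 1CT, with an exact 95% counting interval from 0.0490 to 0.354. Without the filter on low counts SLC7A7 has a log2 fold change of -2.70 (edgeR adjusted p = 4.46e-04), and DESeq2 gives -2.82 (adjusted p = 0.00858). The 378 olfactory receptor genes, which such a line is not known to use, have at most 10 counts each in a library. They sum to 98 counts in 1CT against 55 in 1CT-A, a CPM ratio of 0.392. The counts of SLC7A7 are thus not far from the highest of such genes, and the part of this background in its difference was not tested.

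**Figure D2:**
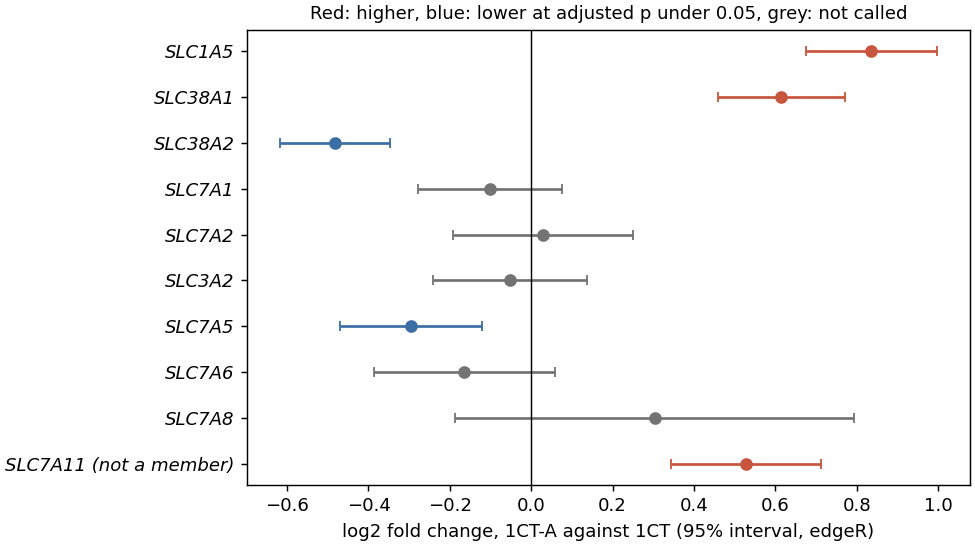
Log2 fold change (1CT-A over 1CT) on the x axis for the 9 tested amino acid transporter genes and for SLC7A11, with bars for the 95% interval from edgeR. SLC1A5, SLC38A1 and SLC7A11 (red) lie above 0, SLC38A2 and SLC7A5 (blue) lie below 0, and the intervals of the other 5 genes (grey) include 0.

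The light chains share 1 heavy chain, so their makeup was set out per library with 2 further light chains that are not among the 10 genes, SLC7A10 and SLC7A11. SLC7A11 (xCT) exports glutamate and imports cystine, and is the most counted light chain in all 6 libraries, with means of 157 ± 18.2 CPM for 1CT and 232 ± 10.0 CPM for 1CT-A (SD, n = 3 each, log2 fold change 0.53, SE 0.09, adjusted p = 2.01e-04 in edgeR). Its share of the light chain counts is 50.2%, 45.2% and 44.5% in 1CT and 59.3%, 61.7% and 59.4% in 1CT-A. The share of SLC7A5 is 34.9%, 38.6% and 37.5% in 1CT and 27.9%, 25.9% and 26.6% in 1CT-A. For each count of SLC7A5 there are therefore 1.27 ± 0.151 counts of SLC7A11 in 1CT and 2.25 ± 0.131 in 1CT-A (SD, n = 3 each). SLC7A6 takes 13.5% to 16.6% of the light chain counts in 1CT and 11.0% to 12.6% in 1CT-A, and SLC7A7, SLC7A8 and SLC7A10 together take under 2% in every library. SLC3A2 counts amount to 0.181, 0.203 and 0.205 of the light chain counts in 1CT and to 0.144, 0.177 and 0.187 in 1CT-A. These ranges overlap.

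**Figure D3:**
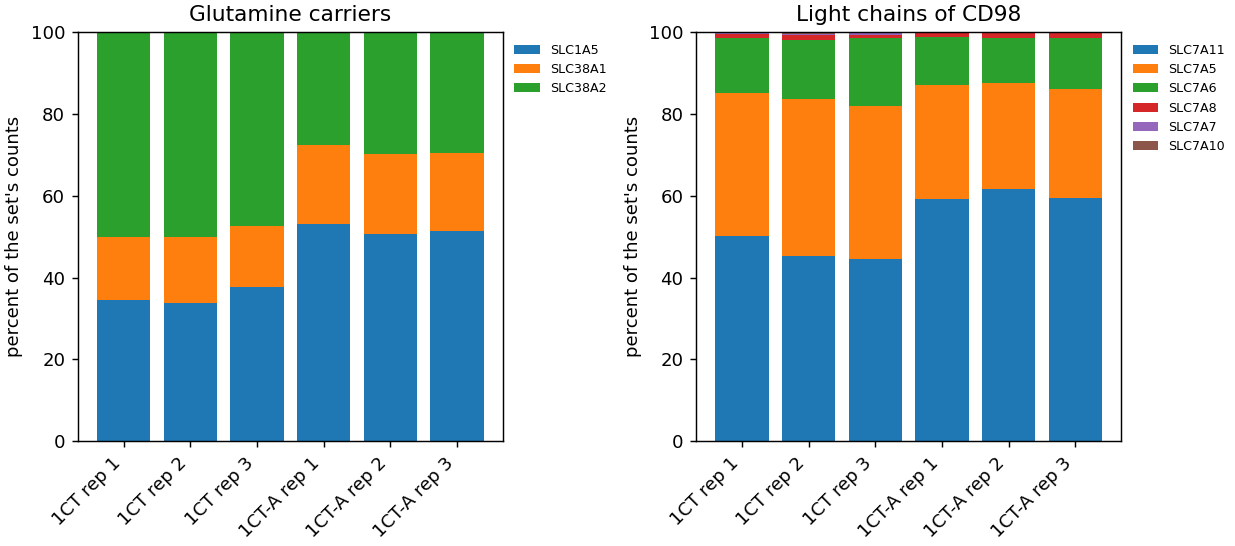
Stacked bars of the percent of counts that each gene holds in its set, with 1 bar for each of the 6 libraries. The sets are the 3 glutamine carriers among the members (left) and the 6 light chains of CD98 (right). SLC1A5 holds 33.8% to 37.7% in 1CT and 50.8% to 53.0% in 1CT-A, and SLC7A11 holds 44.5% to 50.2% and 59.3% to 61.7%.

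The arginine carriers do not stand apart between the lines. SLC7A1 (CAT1), the broadly used importer of arginine and lysine, is at 58.0, 63.1 and 61.1 CPM in 1CT and at 58.4, 61.4 and 54.7 CPM in 1CT-A. SLC7A2 (CAT2), which serves arginine uptake in fewer cell types, is at 53.4, 52.9 and 40.3 CPM in 1CT and at 49.0, 52.1 and 52.4 CPM in 1CT-A. The groups overlap for both genes, and 1CT replicate 3 lies apart from the other 5 libraries for SLC7A2. The log2 fold change of SLC7A1 is -0.10 (SE 0.08, adjusted p = 0.325 in edgeR, 95% interval -0.28 to 0.08). For SLC7A2 it is 0.03 (SE 0.10, adjusted p = 0.834 in edgeR, 95% interval -0.19 to 0.25). Both intervals together span -0.28 to 0.25, short of the changes of SLC38A2, SLC38A1 and SLC1A5 in either direction. SLC7A1 lies on chromosome 13 from 29509414 to 29595688 and SLC7A2 on chromosome 8 from 17497088 to 17570573.

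Of 38 other genes listed as plasma membrane amino acid carriers, 14 pass the filter on low counts. The list was set by name. Whether each gene on it carries amino acids at the plasma membrane was not checked here. This holds for SLC43A3, which is called higher, and SLC38A10, which is called lower. Beside 25.0% higher and 26.0% lower over all tested genes, 4 of these 14 are higher, 5 are lower and 5 are not called. Their median log2 fold change is 0.13 beside -0.0067 over all tested genes. Those with at least 10 CPM and the largest changes are SLC43A2, SLC36A4, SLC38A10 and SLC7A11. SLC43A2 (LAT4), a carrier of large neutral amino acids that needs no heavy chain, falls from 34.8 ± 2.71 to 18.1 ± 0.561 CPM (SD, n = 3 each, log2 fold change -0.98, edgeR adjusted p = 4.12e-06). SLC36A4, a carrier of proline and tryptophan, rises by 0.64 on the log2 scale (edgeR adjusted p = 0.0113), and SLC38A10, a relative of SLC38A1 and SLC38A2, falls by 0.59 (edgeR adjusted p = 3.95e-04). Of the carriers below that level, SLC38A4 and SLC6A15 were picked for the plot of the lists after their values were seen. SLC38A4 (SNAT4) has 35 to 67 counts per 1CT library and 14 to 17 per 1CT-A library (log2 fold change -2.40, adjusted p = 1.44e-05 in edgeR), and SLC6A15, a carrier of branched chain amino acids and proline, rises by 1.07 (adjusted p = 6.15e-05 in edgeR). SLC1A1, also below that level and of the same family as SLC1A5, falls by 1.47 (adjusted p = 4.30e-04 in edgeR). SLC3A1, the heavy chain that takes the place of SLC3A2 in kidney and small intestine, has at most 5 counts in any library.

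The enzymes that use the carried amino acids have called genes in both directions. The list has 25 enzymes of glutamine, arginine and branched chain amino acids, of which 23 are tested, 7 are higher, 4 are lower and 12 are not called. Over all tested genes 25.0% are higher and 26.0% lower, so calls in both directions are common. The median log2 fold change of the enzymes is 0.095. GLUL, which makes glutamine from glutamate, falls from 80.8 ± 4.54 to 41.8 ± 2.71 CPM (SD, n = 3 each, log2 fold change -0.99, edgeR adjusted p = 7.93e-07). GLUL is thus lower in 1CT-A, where SLC1A5 and SLC38A1 are higher and SLC38A2 is lower. Whether these changes are linked was not tested. ODC1, the first enzyme from ornithine to polyamines, rises by 0.76 on the log2 scale (edgeR adjusted p = 1.95e-06), and SMS, the spermine synthase, by 0.68 (edgeR adjusted p = 5.56e-06).

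Among 41 lysosomal carriers and proteins that report amino acids to mTORC1, 38 are tested, with 5 higher, 9 lower and 24 not called. This stands beside 25.0% higher and 26.0% lower over all tested genes. The median log2 fold change of this list is -0.07. SLC36A1 (PAT1), which lets amino acids out of the lysosome, falls by 0.66 (edgeR adjusted p = 0.00101), and TSC2, a brake on mTORC1, falls by 0.64 (edgeR adjusted p = 0.00203). SEH1L, which also belongs to the nuclear pore, rises by 0.83 (edgeR adjusted p = 1.16e-04), and LAMTOR3, of the Ragulator scaffold, by 0.57 (edgeR adjusted p = 0.0199, not called without 1CT-A replicate 2 or without replicate 3).

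Among 16 regulators of carrier gene transcription and carrier turnover, 15 are tested, with 7 higher, 3 lower and 5 not called. Over all tested genes 51.0% are called, 25.0% higher and 26.0% lower, and the median log2 fold change of these regulators is 0.21. ATF4, the transcription factor that raises carrier genes when amino acids are short, goes from 293 ± 24.3 to 405 ± 29.3 CPM (SD, n = 3 each, log2 fold change 0.43, edgeR adjusted p = 8.33e-04), and its partner CEBPG rises by 0.71 (edgeR adjusted p = 0.00101). CEBPB is also higher (log2 fold change 0.65, edgeR adjusted p = 3.58e-05), while EIF2AK4 is lower (-0.29, edgeR adjusted p = 0.0104). ATF3, DDIT3 and TRIB3 are not called (edgeR adjusted p = 0.148, 0.362 and 0.605). ASNS of the enzyme list is not called either (edgeR adjusted p = 0.215). Whether ATF4 acts on the carrier genes here was not tested. MYC, which is known to act on SLC1A5 and SLC7A5, goes from 7.20 ± 2.13 to 18.1 ± 3.04 CPM (log2 fold change 1.29, edgeR adjusted p = 1.19e-04). NFE2L2, a regulator of SLC7A11, rises by 1.23 (edgeR adjusted p = 1.55e-06). Of the ubiquitin ligases that remove carriers from the membrane, NEDD4L falls by 0.78 (adjusted p = 2.20e-04 in edgeR). Its close relative NEDD4, which was added after its values were seen, goes the other way, from 39.4 ± 7.14 to 65.5 ± 2.82 CPM (SD, n = 3 each, log2 fold change 0.70, adjusted p = 1.77e-04 in edgeR).

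**Figure D4:**
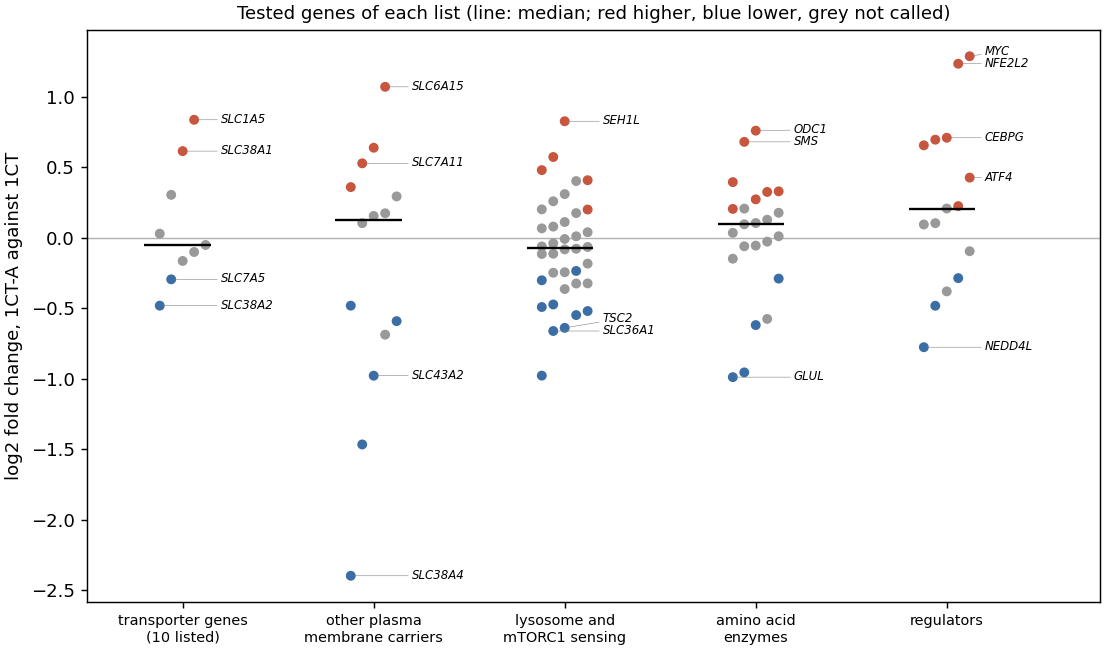
Log2 fold change (1CT-A over 1CT) on the y axis for each tested gene of the amino acid transporter genes and of 4 related gene lists, in red where called higher, in blue where called lower and in grey where not called, with a line at the list's median. The 9 tested transporter genes lie between -0.48 (SLC38A2) and 0.84 (SLC1A5), and every list has called genes on both sides of 0.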

How the data were processed

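Total RNA of 3 libraries of 1CT and 3 of 1CT-A was measured with QuantSeq 3′ libraries from 500 ng RNA, per the labels. The study's methods describe RNA sequencing of these samples and also mention a cDNA microarray, and the values are read counts. The authors deposited 1 file of raw counts per library, whole numbers per gene symbol without normalization or pooling. The submitters' processing notes name Bowtie2, edgeR and the build hg19. Their versions, the counting tool, annotation and use of strand are not given in the sources used here. Coordinates are those of GENCODE 44 or RefSeq on GRCh38, not those of the authors' counting.

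The files have 25737 entries for 24462 symbols, and the entries of the 286 repeated symbols were summed. Each member has 1 entry. The 1CT-A libraries are deeper, so low values are firmer there. Groups follow the sample titles. Genes were kept by filterByExpr (minimum count 10), scaled by TMM and compared between the lines by the quasi-likelihood test of edgeR 4.0.16 (R 4.3.3), with line as the only term. The p-values of the 12514 genes were adjusted after Benjamini and Hochberg, and the threshold was 0.05. CPM values are scaled to file totals, with SD over 3 libraries. No library is a copy of another, since replicates differ by more than counting noise (chi-square over its degrees of freedom 3.00 to 8.42).

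The members and the gene lists were chosen with earlier results of these data known. Genes named outside the members are, per list, up to 4 called genes with the largest change and at least 10 CPM, partners, copies and neighbours of a member, ATF4, MYC, APC and markers. SNHG1 is a neighbour. A few other genes were added after their values were seen. A gene that this rule names and an overlapping gene are not reported here. Alternatives were DESeq2 1.42.0, limma-voom (limma 3.58.1), other scalings and filters, the replicate block, a stricter threshold, the largest entry of a repeated symbol, and each library left out. Protein sequences were not compared here.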

Additional observations from a re-analysis of the deposited data

How the results depend on the processing

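The log2 fold changes of the 9 tested members were computed under 14 alternatives each, and 125 of these 126 values kept their side of the threshold, with called members keeping their sign. The exception is SLC7A5, at -0.26 (edgeR adjusted p = 0.0542) without 1CT-A replicate 3, and between -0.37 and -0.25 over all 14. Without 1CT-A replicate 2 its call is held only just (edgeR adjusted p = 0.04997). SLC1A5 stayed between 0.79 and 0.91, SLC38A1 between 0.59 and 0.66 and SLC38A2 between -0.50 and -0.44. These values leave out SLC7A7. With it, 3 members in place of 2 were lower without the filter and under DESeq2. The same held without 1CT replicate 1, 1CT-A replicate 1 or 1CT-A replicate 2. The deviations of same-numbered libraries had correlations of -0.161, 0.220 and -0.139 over 8224 genes, with no common sign. These 3 values cannot settle whether the numbers pair libraries. With the replicate block SLC1A5, SLC38A1, SLC38A2 and SLC7A5 have log2 fold changes of 0.84, 0.61, -0.48 and -0.30, and the block changed no call of a member. Without a filter, when genes of low counts were tested too, 10 in place of 5 genes listed as other plasma membrane carriers were lower. The reason for the added calls was not tested. With each library left out, 3 to 7 genes of lysosomal transport and mTORC1 sensing were higher, the fewest without 1CT-A replicate 3 and the most without 1CT replicate 3, beside 5 with all libraries. The median log2 fold change over the genes tested was -0.12 under DESeq2 and -0.099 in edgeR without a filter, both over a set that includes genes of low counts, beside -0.0067, while SLC1A5 was at 0.86 and SLC3A2 at -0.03 under DESeq2. Depth limits SLC7A7 and SLC7A8, with at most 56 counts per library.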
